A study of Homo sapiens with 40 samples.

Results

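The tubulin mRNAs described here are those of 9 genes, the alpha-tubulins TUBA1A, TUBA1B and TUBA1C and the beta-tubulins TUBB, TUBB2A, TUBB2B, TUBB3, TUBB4B and TUBB6. They were taken by symbol, without use of any measured value, from count tables of 55765 symbols, and all 9 were present in each of the 40 libraries. The libraries came from HEK293 cells, a line derived from human embryonic kidney, and were made from RNA in 3 experiments. In the first, RNA was recovered by immunoprecipitation (IP) of endogenous eIF4A1, eIF4A2 or DDX6 from cells without siRNA and set beside total RNA of the same experiment, with 3 libraries in each of the 4 groups. In the second, cells transfected with control siRNA or CNOT1 siRNA were lysed and separated on sucrose gradients, and input RNA, subpolysomal RNA (fractions 1 to 5) and polysomal RNA (fractions 6 to 11) were sequenced, with 4 libraries in each of the 6 groups. In the third, total RNA came from cells in which TNRC6A and TNRC6B were targeted at once by siRNA and from cells given control siRNA, with 2 libraries per group. All libraries are of 1 transformed cell line, and no library from a control antibody was analysed here, so each IP was read against total RNA.

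Alpha- and beta-tubulin pair into the dimers from which microtubules are built, and cells hold the amount of free dimer in check by destroying tubulin mRNA while it is being translated. When free dimer is in excess, the factor TTC5 binds the first residues of tubulin as they leave the ribosome (methionine, arginine and glutamate, followed by cysteine in alpha- or isoleucine in beta-tubulin), and SCAPER then links the ribosome to the Ccr4-Not complex, whose scaffold is CNOT1 and which shortens the poly(A) tail. eIF4A1 is the helicase of cap-dependent initiation, eIF4A2 is its close paralogue, DDX6 is a helicase of mRNA repression that binds CNOT1, and TNRC6A and TNRC6B are the GW182 scaffolds through which miRNAs reach Ccr4-Not.

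The opening of each coding sequence is shown because the autoregulatory signal lies there. The first 30 coding bases of the MANE Select transcript (GENCODE 44 on GRCh37) are given 5′ to 3′, with the first 12, which encode the peptide read by TTC5, in capitals.
TUBA1A: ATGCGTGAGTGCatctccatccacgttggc
TUBA1B: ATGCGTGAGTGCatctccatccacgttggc
TUBA1C: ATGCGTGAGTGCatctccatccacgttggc
TUBB: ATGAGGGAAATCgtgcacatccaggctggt
TUBB2A: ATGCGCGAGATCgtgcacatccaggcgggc
TUBB2B: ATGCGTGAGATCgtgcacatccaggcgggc
TUBB3: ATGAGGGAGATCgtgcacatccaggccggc
TUBB4B: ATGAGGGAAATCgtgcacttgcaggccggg
TUBB6: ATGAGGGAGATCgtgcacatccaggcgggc
The 3 alpha-tubulin mRNAs were identical over these 30 bases, whereas the beta-tubulins used several codons for the same 4 residues. Of 18922 coding genes with such a transcript, 9 began with the alpha-tubulin residues and 10 with those of beta-tubulin, and every one of them was a tubulin gene.

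TUBA1A (chr12:49578469-49582863, minus strand), TUBA1B (chr12:49521565-49525180, minus) and TUBA1C (chr12:49582519-49668383, plus) lie side by side on chromosome 12. TUBB2A (chr6:3153731-3157778, minus) and TUBB2B (chr6:3223558-3231964, minus) are neighbours on chromosome 6, which also carries TUBB (chr6:30685212-30693315, plus). TUBB3 (chr16:89987800-90005169, plus), TUBB4B (chr9:140135739-140138159, plus) and TUBB6 (chr18:12307668-12344319, plus) stand on chromosomes of their own. Each MANE transcript has 4 exons and a coding sequence of 1335 to 1356 bases.

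The similarity of these genes bears on how firmly reads can be assigned. The coding sequences of TUBA1A and TUBA1B were 97.2% identical and those of TUBB2A and TUBB2B 98.1%. Of the 75-base windows of each transcript, the share found nowhere else in the genome or in another gene's transcripts was 100% for TUBB6, 94.4% for TUBB4B, 89.5% for TUBB, 81.9% for TUBA1C, 68.3% for TUBA1A, 51.6% for TUBA1B, 47.9% for TUBB2B and 40.5% for TUBB2A. For TUBB3 it was 7.35%, because 85.8% of its windows also belonged to an unnamed gene (ENSG00000198211) annotated on the same strand at its locus. TUBB6, TUBB4B and TUBB were thus the members with the most sequence of their own, and the levels of TUBB2A, TUBB2B, TUBA1B and TUBB3 carry the most doubt about assignment. TUBA1A and TUBA1C overlap each other on opposite strands, the kit marks strand, and the strand setting used in counting is not given in the sources used here.

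Across the series the libraries held 15353317 to 46018900 counts each. CNOT1 was at 661 to 745 CPM (counts scaled to a common library size) in control siRNA input and at 38.6 to 41.9 CPM in CNOT1 siRNA input. In polysomal RNA, however, the library labelled control siRNA replicate 3 held 26.8 CPM of CNOT1 and that labelled CNOT1 siRNA replicate 3 held 628 CPM, opposite to the other 3 libraries of each group (475 to 503 and 22.7 to 30.8 CPM). Labels were kept as given, and the polysomal comparisons of the 9 mRNAs are therefore also given without both of these libraries; the shares and correlations are not. TNRC6A was lower after its siRNA (41.6 and 65.6 CPM against 179 and 179.8), as was TNRC6B (18.2 and 26.6 CPM against 67.9 and 69.6). The mRNAs of the precipitated proteins were also compared: EIF4A2 was higher in the eIF4A2 IP (log2 1.29) and DDX6 in the DDX6 IP (1.62), while EIF4A1 was lower in the eIF4A1 IP (-2.22) at 1.34 to 15.5 CPM over all libraries. EIF4A2 was at 197.5 to 1128 CPM over all libraries. How reads were assigned to the EIF4A1 row was not examined. The neurofilament and mesenchymal genes long known in HEK293 cells were present (NEFM 196 to 6013 CPM, VIM 104.5 to 694 CPM), PAX2 was at 0.0993 to 1.59 CPM, and the leukocyte, hepatocyte and fibroblast markers PTPRC, ALB and DCN did not exceed 0.389 CPM.

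The order of the members by level was read from CPM per kilobase of transcript, since CPM alone favours long mRNAs. In control siRNA input, TUBB (1060 CPM per kb) and TUBA1B (998 CPM per kb) led, and the ranges of their 4 libraries overlapped. TUBB4B followed at 278 CPM per kb, TUBA1C at 171 and TUBA1A at 145, the last pair with overlapping ranges. TUBB6 was at 28.2, TUBB2B at 23.3, TUBB2A at 16.3 and TUBB3, the neuronal beta-tubulin, at 2.92 CPM per kb, and none of these neighbours overlapped. TUBB or TUBA1B stood highest in 6 groups each, and TUBB3 stood lowest in all 12. This order depends on how much of each transcript can be assigned. Per kb of windows found nowhere else, control siRNA input had TUBA1B at 2028 and TUBB at 1220 CPM. On that scale TUBB3 (41.5 CPM) stood above TUBB6 (29.3 CPM) in the same group. Together the 9 mRNAs took 0.497% ± 0.0256 (SD, n = 4) of all counts in control siRNA input and 0.493% ± 0.0249 (SD, n = 4) in CNOT1 siRNA input. Their share was 0.346% ± 0.0249 and 0.284% ± 0.0101 in subpolysomal RNA and 0.520% ± 0.0296 and 0.525% ± 0.0506 in polysomal RNA (control and CNOT1 siRNA, SD, n = 4).

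**Figure D1:**
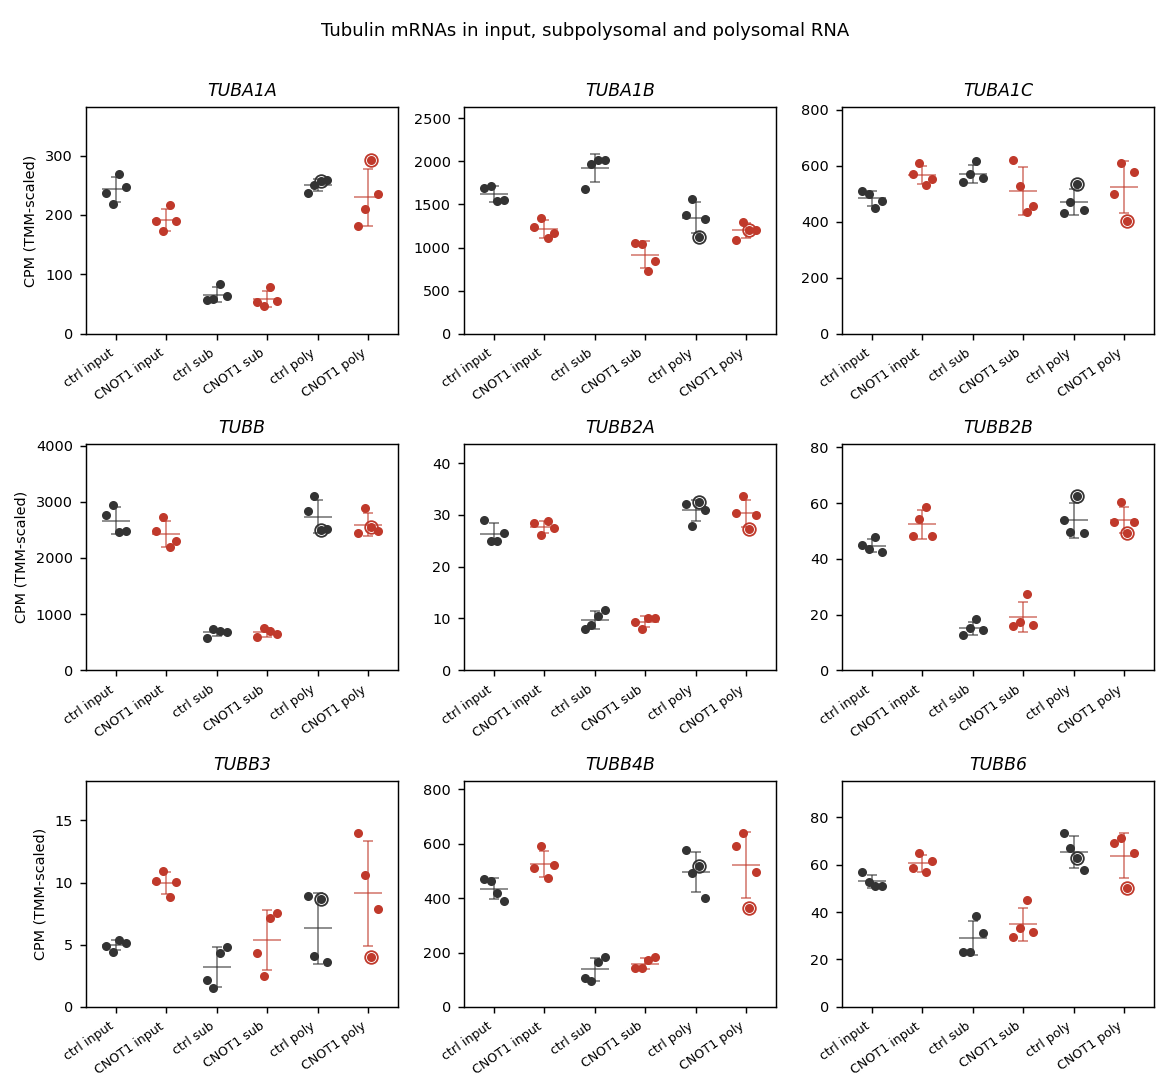
Level of each tubulin mRNA (CPM, scaled by TMM, linear axes from 0) in input, subpolysomal (sub) and polysomal (poly) RNA of cells given control (ctrl, black) or CNOT1 (red) siRNA; points are the 4 libraries of a group in replicate order, ticks and bars the mean and SD, and rings the polysomal libraries of replicate 3. Most members were low in subpolysomal RNA, whereas TUBA1B stood at 1680 to 2022 CPM there in control cells and at 731 to 1049.6 CPM after CNOT1 siRNA.

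Most tubulin mRNAs were concentrated in polysomes, but TUBA1B and TUBA1C were not. In control siRNA cells, 6 of the 9 mRNAs were higher in polysomal than in subpolysomal RNA, by 2.26- to 4.07-fold, and TUBA1B was lower. These are calls of edgeR's quasi-likelihood test at a Benjamini-Hochberg false discovery rate (FDR) below 0.05 over all 16274 genes tested, of which 34.6% were called higher and 33.7% lower. The median log2 difference of the 9 was 1.67, against 0.03 over all genes.

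TUBB, the main beta-tubulin of dividing cells, was at 577, 734, 699 and 681 CPM in the 4 subpolysomal libraries of control cells and at 2839, 3099.6, 2490.1 and 2515 CPM in the polysomal ones. The fractions did not overlap, and the log2 difference was 2.02 ± 0.13 (SE, FDR 6.92e-10, edgeR). TUBA1A, an alpha-tubulin best known from developing neurons, behaved in the same way, with 56.6, 58.3, 83.9 and 63.4 CPM in subpolysomal and 237, 249.6, 257 and 259 CPM in polysomal RNA (log2 1.94 ± 0.18, edgeR FDR 3.19e-08). TUBB2A (1.67 ± 0.15), TUBB2B (1.83 ± 0.17), TUBB4B (1.85 ± 0.21) and TUBB6 (1.17 ± 0.18) were likewise higher in all 4 polysomal libraries than in any subpolysomal library. TUBB3 had the same direction with overlapping libraries (1.01 ± 0.45, edgeR FDR 0.0527), at 1.49 to 4.85 CPM in subpolysomal and 3.57 to 8.89 CPM in polysomal RNA.

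TUBA1B, the most abundant alpha-tubulin mRNA here, was at 1680.4, 1971, 2022 and 2017 CPM in the subpolysomal libraries of control cells and at 1382, 1558, 1119 and 1334 CPM in the polysomal ones. All 4 subpolysomal libraries were above all 4 polysomal ones (log2 polysomal against subpolysomal -0.51 ± 0.14, edgeR FDR 0.00329). TUBA1C was at 543, 572, 616 and 557 CPM in subpolysomal and 431, 471, 536 and 441 CPM in polysomal RNA, again without overlap, but its difference was not called (-0.28 ± 0.14, edgeR FDR 0.0879). The 3 alpha-tubulin mRNAs, whose first 30 coding bases are the same, thus had log2 differences of 1.94, -0.51 and -0.28.

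Without both polysomal libraries of replicate 3, 7 members were higher in polysomal RNA of control cells (37.2% of 16386 genes were), TUBB3 now among them (0.94 ± 0.39, edgeR FDR 0.0418). None was lower (31.7% of genes were), since TUBA1B was at -0.33 ± 0.15 with an edgeR FDR of 0.057. Leaving out control siRNA polysomal replicate 3 alone had the same effect on TUBA1B (-0.33, edgeR FDR 0.058). TUBB3 was also called higher with both libraries kept, by DESeq2 (0.99, FDR 0.0283) and with all 24 gradient libraries in 1 fit (1.02, edgeR FDR 0.0213).

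After CNOT1 siRNA, 7 members were higher in polysomal RNA and none lower, beside 30.8% and 33.8% of all genes. The 6 members called higher in control cells had log2 differences of 0.87 to 1.97. TUBA1B was the 7th, at 1049.6, 1038, 731 and 846 CPM in subpolysomal and 1092, 1302, 1205 and 1209 CPM in polysomal RNA. The lowest polysomal library was above the highest subpolysomal one, opposite to control cells (log2 0.39 ± 0.14, edgeR FDR 0.0196). TUBA1C was at 0.04 ± 0.14 (edgeR FDR 0.843) and TUBB3 at 0.78 ± 0.43 (edgeR FDR 0.122). Without both replicate 3 libraries 8 were higher and none lower (37.2% and 31.2% of genes), with TUBA1B at 0.54 ± 0.15 and TUBB3 at 1.20 ± 0.37 (edgeR FDR 0.00399 and 0.00857).

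**Figure D2:**
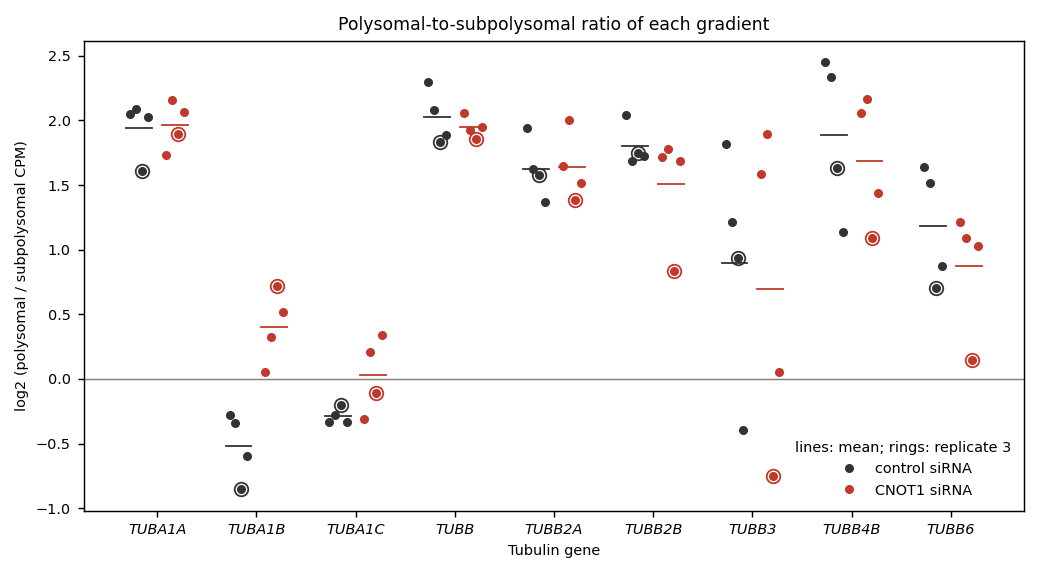
The log2 ratio of polysomal to subpolysomal CPM (0.5 CPM added to each) for every gradient and tubulin gene, with control siRNA in black and CNOT1 siRNA in red; points are the 4 replicates in order, lines their means and rings replicate 3. For TUBA1B the 4 control gradients lay between -0.85 and -0.28 and the 4 CNOT1 siRNA gradients between 0.06 and 0.72. The values -0.85 and 0.72 are those of replicate 3. Without it the ranges were -0.597 to -0.282 and 0.057 to 0.515. Fractions were matched by replicate number, and of 24 same-numbered pairs of fraction libraries 17 correlated at r of at most 0.1.

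The knockdown of CNOT1 asks how far tubulin mRNA levels follow the scaffold of the deadenylase complex. In input RNA the members split: 5 were higher after CNOT1 siRNA (TUBA1C, TUBB2B, TUBB3, TUBB4B and TUBB6) and 2 lower (TUBA1A and TUBA1B), beside 27.3% and 33.4% of the 15618 genes tested. CPM are shares of a library, and in bulk RNA fewer cells carrying an mRNA and less of it per cell cannot be told apart. The median log2 change of the 9 was 0.19, against -0.04 over all genes.

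TUBB3 showed the largest change of the 9 in input, from 4.93, 4.45, 5.41 and 5.14 CPM to 10.1, 10.9, 8.8 and 10 CPM, which is 2.00-fold. The groups were well apart (log2 1.00 ± 0.10, edgeR FDR 3.15e-07), on 142 to 411 counts per library. TUBB4B, the widely expressed beta-tubulin also used in cilia, went from 471, 461, 419 and 388 CPM to 511, 592, 475 and 523 CPM, without overlap (0.27 ± 0.07, edgeR FDR 0.00455). TUBB2B (0.23 ± 0.07) and TUBA1C (0.23 ± 0.06) were also higher in every CNOT1 siRNA library than in any control library, whereas TUBB6 (0.19 ± 0.06) was called with overlapping libraries.

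The 2 mRNAs that were lower in input were alpha-tubulins. TUBA1B fell from 1691, 1714, 1542 and 1549 CPM to 1238, 1341, 1109.7 and 1171 CPM (log2 -0.42 ± 0.07, edgeR FDR 4.68e-05), and TUBA1A from 236, 219, 269 and 247 CPM to 189, 172, 217 and 189 CPM (-0.34 ± 0.07, edgeR FDR 0.000743). Neither gene's groups overlapped. TUBB (-0.14 ± 0.08, edgeR FDR 0.134) and TUBB2A (0.07 ± 0.07, edgeR FDR 0.421) did not pass the test.
Same-numbered input libraries deviated together, and with the replicate as a block TUBB was also lower (-0.14, edgeR FDR 0.00585), beside 30.1% of genes higher and 36.3% lower in that fit. With all 24 gradient libraries in 1 fit only TUBB3 was called higher and TUBA1B lower, beside 13.2% and 16.9% of genes.

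In subpolysomal RNA only TUBA1B was called, and it was lower; 12.7% of 15664 genes were higher and 14.5% lower. It went from 1680.4 to 2022 CPM in the control libraries to 731 to 1049.6 CPM after CNOT1 siRNA, 2.10-fold (log2 -1.07 ± 0.14, edgeR FDR 0.00109). The highest CNOT1 siRNA library was below the lowest control library, and the value lay between -1.18 and -0.998 under every alternative run. TUBA1C, also high in this fraction, was at 543 to 616 CPM in control and at 434 to 622 CPM in CNOT1 siRNA libraries (-0.17 ± 0.13, edgeR FDR 0.368).
Same-numbered subpolysomal libraries also deviated together. With the block, 4 beta-tubulins were called higher, TUBB3 (0.77, edgeR FDR 7.72e-05), TUBB2B (0.32), TUBB4B (0.26) and TUBB6 (0.28), and TUBA1A (-0.17, edgeR FDR 0.0492) joined TUBA1B as lower, beside 27.7% and 30.8% of genes. TUBB was at -0.00 ± 0.12 and TUBB2A at -0.05 ± 0.16 without the block.

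In polysomal RNA none of the 9 was called with labels as given, and neither was any other gene (0% higher and 0% lower of 14540 by edgeR, 122 genes at an unadjusted p below 0.05, and 0 calls by DESeq2). Without both replicate 3 libraries 19.4% of 14514 genes were higher and 21.4% lower, and 2 members were among the former. TUBB3 was then at 8.89, 4.12 and 3.57 CPM in control and 14, 10.6 and 7.89 CPM in CNOT1 siRNA libraries, which overlapped (log2 1.01 ± 0.31, edgeR FDR 0.0229). TUBA1C was at 431, 471 and 441 CPM against 501, 609 and 579 CPM, without overlap (0.38 ± 0.10, edgeR FDR 0.00977). TUBA1B was at -0.20 ± 0.11 (edgeR FDR 0.149).

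**Figure D3:**
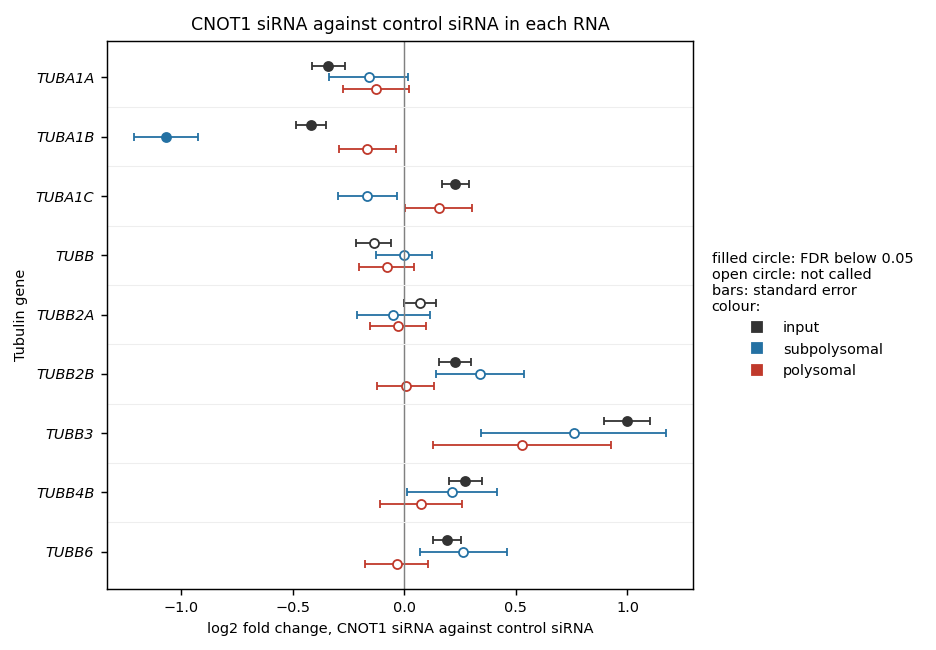
Log2 fold change of each tubulin mRNA after CNOT1 siRNA against control siRNA in input (black), subpolysomal (blue) and polysomal (red) RNA, with labels as given; bars are standard errors from edgeR, and filled points passed an FDR of 0.05. Subpolysomal TUBA1B (-1.07) and input TUBB3 (1.00) are the extremes.

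Whether the CNOT1 siRNA effect differed between fractions was tested as an interaction. TUBA1B was the only member called, with an effect 0.90 ± 0.20 log2 units more positive in polysomal than in subpolysomal RNA (edgeR FDR 0.0336), where 0.363% of 16274 genes were called higher and 0.793% lower. Without both replicate 3 libraries it was 0.87 with an edgeR FDR of 0.0231, beside 2.54% and 3.70% of genes. Leaving out single libraries kept the value between 0.86 and 1.04, but for 11 of the 16 libraries the edgeR FDR then rose above 0.05, up to 0.133. The other 8 members had interactions of -0.33 to 0.32, none called.

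The immunoprecipitations ask which mRNAs are held by each helicase. Tubulin mRNAs were mostly depleted from all 3: relative to total RNA, 7 members were lower in the eIF4A1 IP, 8 in the eIF4A2 IP and 6 in the DDX6 IP, and none was higher in any. Of the 17398 genes tested, 25.2%, 25.5% and 21.8% were lower in these IPs and 27.6%, 24.7% and 24.2% higher. The median log2 differences of the 9 were -1.64, -1.86 and -1.31, against 0.07, 0.01 and 0.05 over all genes. The 3 comparisons share the total RNA libraries.

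TUBA1A was at 306, 254 and 190.1 CPM in total RNA, 53.3, 52.5 and 50.9 CPM in the eIF4A1 IP, 59.5, 44.4 and 61.4 CPM in the eIF4A2 IP, and 84.9, 78.8 and 76.1 CPM in the DDX6 IP. Every IP library was below every total RNA library, by 4.79-, 4.54- and 3.13-fold (edgeR FDR at most 2.48e-05). TUBB fell from 2516, 2772 and 1632 CPM to 568, 616 and 643 CPM with eIF4A1, 617, 572 and 719 CPM with eIF4A2, and 798, 837 and 811 CPM with DDX6, or by 3.79-, 3.63- and 2.83-fold. TUBB4B, TUBB2A and TUBB2B were also lower in all 3 IPs without overlap, by 2.47- to 4.45-fold. Total RNA replicate 3 held the lowest level of all 9 mRNAs in that group.

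**Figure D4:**
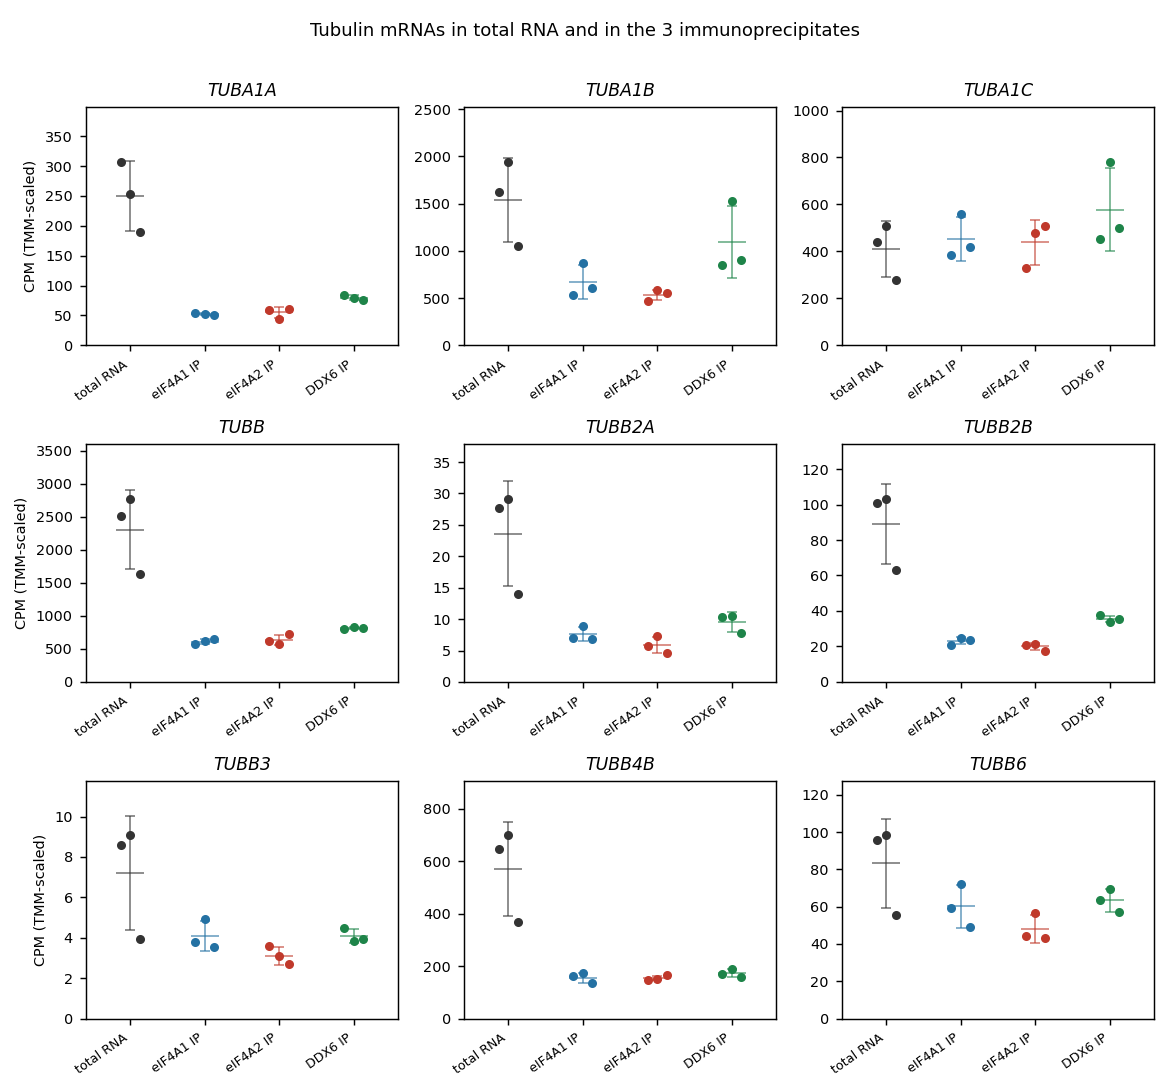
Level of each tubulin mRNA (CPM, scaled by TMM, linear axes from 0) in total RNA (black) and in the eIF4A1 (blue), eIF4A2 (red) and DDX6 (green) IPs; points are the 3 libraries of a group, ticks and bars the mean and SD. TUBA1A, TUBB, TUBB2A, TUBB2B and TUBB4B had every IP library below every total RNA library, and TUBA1C overlapped in all 3 IPs.

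The remaining members departed from this in part. TUBA1B was at 1622, 1938 and 1056 CPM in total RNA and at 537, 875 and 608 CPM (eIF4A1), 469, 580.5 and 549.5 CPM (eIF4A2) and 845, 1527 and 899.6 CPM (DDX6) in the IPs. It was lower with eIF4A1 (log2 -1.19 ± 0.28, edgeR FDR 0.00265) and eIF4A2 (-1.53 ± 0.28, edgeR FDR 0.000484), and its DDX6 libraries overlapped those of total RNA (-0.50 ± 0.27, edgeR FDR 0.151). TUBA1C was not called in any IP: it was at 442, 508 and 277 CPM in total RNA and at 329.6 to 779.8 CPM over the 9 IP libraries (0.15 ± 0.27, 0.10 ± 0.27 and 0.50 ± 0.27 for eIF4A1, eIF4A2 and DDX6). All 9 members, alpha and beta, had their highest mean of the 3 IPs in the DDX6 IP. For TUBB3 the margin was small, at 4.097 CPM against 4.087 CPM in the eIF4A1 IP. The share of all genes with their highest IP mean there was not computed.

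TUBB3 was lower in the 3 IPs by 1.76-, 2.32- and 1.76-fold, on 102 to 326 counts per library. Its eIF4A2 IP libraries (2.69 to 3.58 CPM) were below those of total RNA (3.94 to 9.06 CPM), and the others overlapped them. Its calls with eIF4A1 and DDX6 were each lost when any of 4 single libraries was left out, among them total RNA replicates 1 and 2 (log2 -0.67 and -0.62 in both comparisons). In the main edgeR fit, TUBB6 was called with eIF4A2 alone (-0.79 ± 0.21, edgeR FDR 0.0071), with eIF4A1 and DDX6 at -0.47 ± 0.21 (edgeR FDR 0.0794) and -0.39 ± 0.21 (edgeR FDR 0.146). DESeq2 also called TUBB6 lower with eIF4A1 (-0.51, FDR 0.0409), as did edgeR without the filter on low counts (-0.47, FDR 0.0411). Leaving out total RNA replicate 3 gave a TUBB6 call with eIF4A1 (-0.69, edgeR FDR 0.00851) and with DDX6 (-0.61, edgeR FDR 0.0186).
Same-numbered libraries of this experiment deviated together. With the replicate block, TUBB6 was also lower in the eIF4A1 IP (-0.45, edgeR FDR 0.00765; 33.6% of genes higher and 30.6% lower) and in the DDX6 IP (-0.36, edgeR FDR 0.0279). In the DDX6 IP the block also called TUBA1B lower (-0.52, edgeR FDR 0.0213) and TUBA1C higher (0.47, edgeR FDR 0.0467), beside 31.1% of genes higher and 28.3% lower.

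**Figure D5:**
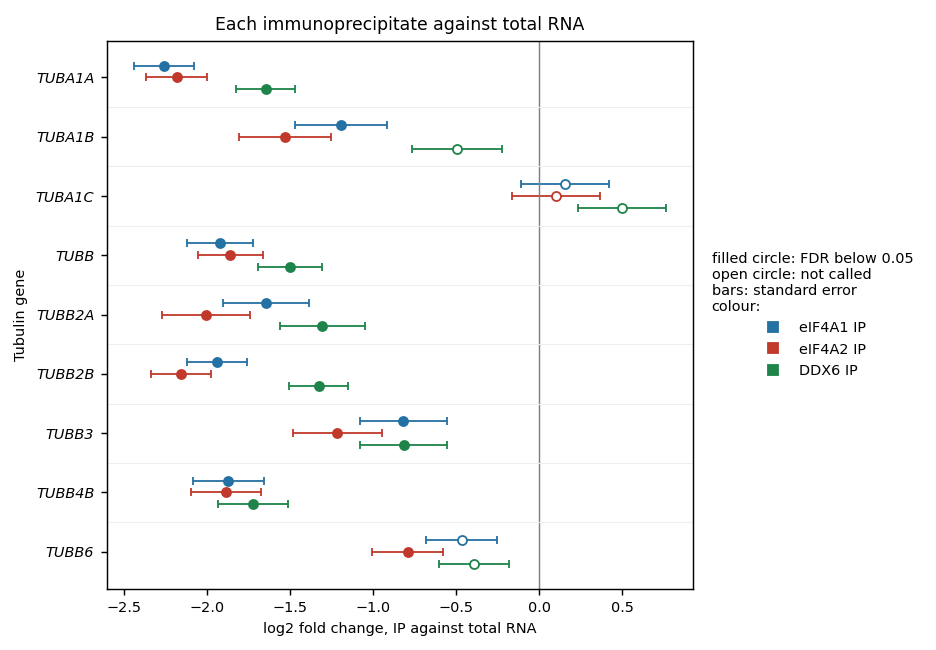
Log2 fold change of each tubulin mRNA in the eIF4A1 (blue), eIF4A2 (red) and DDX6 (green) IPs against total RNA; bars are standard errors from edgeR, and filled points passed an FDR of 0.05. TUBA1C is the one member with positive values in all 3 IPs, between 0.10 and 0.50.

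Set against each other, the eIF4A2 and eIF4A1 IPs gave no call among the 9 mRNAs (0.891% of genes were higher and 0.0690% lower with eIF4A2 by edgeR). The log2 differences ran from -0.40 ± 0.27 for TUBB3 to 0.08 ± 0.17 for TUBA1A, no member was below an unadjusted p of 0.05, and DESeq2 called none. The eIF4A2 IP held less than the DDX6 IP of TUBA1B (-1.03 ± 0.28, edgeR FDR 0.0196), TUBB2B (-0.83 ± 0.18, edgeR FDR 0.00755) and TUBA1A (-0.54 ± 0.18, edgeR FDR 0.0445), and none was higher, beside 11.9% of genes lower and 8.78% higher. All 9 values were negative, with a median of -0.40 against -0.04 over all genes. The libraries of the 2 IPs overlapped for TUBA1C and TUBB4B and for no other member. The share of all genes without overlap was not computed, and 6193 of 17398 genes had an unadjusted edgeR p below 0.05.
The TUBA1A call was lost without any 1 of the 6 libraries compared, and the TUBA1B call without eIF4A2 IP replicate 1 (-0.95) or DDX6 IP replicate 2 (-0.71), the library with 1527 CPM. With the block 5 members were lower, TUBB2A (-0.71) and TUBB6 (-0.41) being added, beside 16.6% of genes higher and 23.0% lower. TUBB2A was also called lower by DESeq2 (-0.68, FDR 0.046), beside 2432 of 17474 genes. The same held for edgeR without the filter on low counts (-0.70, FDR 0.00661), beside 2426 of 32590 genes.

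Against the eIF4A1 IP, the DDX6 IP gave no call by edgeR, with 0.0747% of genes higher and 0.0115% lower, although all 9 log2 values were above 0 (0.00 to 0.70). Their median was 0.344, against -0.003 over all genes. TUBA1A (0.61 ± 0.18), TUBB2B (0.61 ± 0.18), TUBA1B (0.70 ± 0.27) and TUBB (0.42 ± 0.19) had unadjusted p values of 0.00368, 0.0037, 0.0236 and 0.0447 by edgeR. DESeq2 called TUBA1A and TUBB2B higher, beside 2.06% of genes higher and 0.961% lower by that tool, and edgeR with the block called these 2 and TUBA1B (4.83% of genes higher and 3.18% lower). The 3 comparisons between IPs use the same 9 libraries.

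Depletion of TNRC6A and TNRC6B gave no call among the members, and none over all 14025 genes (0% higher and 0% lower by edgeR, with 331 genes at an unadjusted p below 0.05, and 7 higher and 2 lower by DESeq2). The 2 control libraries differed widely: TUBB was at 3794 and 1538 CPM in them and at 3509 and 2102 CPM after the siRNAs. TUBB4B was at 502 and 151 CPM against 476 and 229 CPM, so the groups overlapped. TUBB2B was the member whose groups did not, with 48.9 and 31.9 CPM in control and 28.4 and 29.8 CPM in knockdown libraries (log2 -0.47 ± 0.29, unadjusted edgeR p of 0.167). With 2 libraries per group such a separation carries little weight, and its share over all genes was not computed. DESeq2 called 0 of the 9 members as well. The standard errors of the 9 log2 values ran from 0.20 to 0.93, and even TNRC6A (-1.74 ± 0.28) and TNRC6B (-1.62 ± 0.27) did not pass with 2 libraries per group (edgeR FDR 1). Same-numbered libraries deviated together here too (r of 0.862), but on 2 pairs, which were not taken as a pairing. With the replicate number as a block, edgeR called 768 of 14025 genes higher and 196 lower, and 0 of the 9 members.

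Features that did not choose the members were compared in the reference transcripts. The study counted 8 purine-rich tetramers of A and G (AAAA, every one with a single G other than AAAG, and every one with 2 G in which they are not in the last pair of places or side by side in the middle) without overlap between matches on the mRNA strand, and the same was done here. None of them occurred in the 5′UTR of TUBA1B, TUBB2A, TUBB2B, TUBB3 or TUBB4B, while 80.3% of all 5′UTRs held at least 1. TUBA1C had 1 per 100 bases, TUBB 2.58, TUBA1A 2.97 and TUBB6 3.85, around a median of 1.82 over 18922 transcripts. In the coding sequence all 9 were below the median of 2.88 per 100 bases, at 1.55 to 2.29. All members had 5′UTRs of 52 to 155 bases (median of all 133) and 3′UTRs of 151 to 1373 bases (median 1060), the longest being that of TUBA1C.

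Over the 24 gradient libraries, 6 members correlated with the mean of the 9 at r of 0.95 to 0.99 and TUBB3 at 0.67, whereas TUBA1B was at -0.01 and TUBA1C at -0.15. The genes outside the list with the most similar course were TRAP1 (0.992), DDX54 (0.991), SDHA (0.989), DGCR2 (0.989) and AAMP (0.988), among genes with a mean of at least 10 CPM. These values are descriptions, since the libraries share fractions and siRNA groups.

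Other genes of the tubulin pathway were counted from lists that were written with earlier results of these data known. Of 14 further tubulins, 8 had enough counts to be tested in the IPs, and the same 3 were lower in each IP: TUBA4A (log2 -1.50, -2.08 and -1.53 for eIF4A1, eIF4A2 and DDX6), TUBB4A (-1.45, -1.82 and -1.25) and TUBG1, the gamma-tubulin of microtubule nucleation (-0.96, -1.39 and -0.63). TUBB8 was higher in each (1.31, 1.35 and 0.84). Of all genes, 25.2%, 25.5% and 21.8% were lower in these IPs and 27.6%, 24.7% and 24.2% higher. In polysomal against subpolysomal RNA of control cells 3 were higher, TUBB4A (2.15 ± 0.22), TUBG1 (2.02 ± 0.17) and TUBA4A (1.51 ± 0.40), and 2 lower, TUBG2 (-1.98 ± 0.17) and TUBE1 (-1.13 ± 0.14). The shares over all genes were 34.6% higher and 33.7% lower. The median of the 8 was 0.46, and it was -0.22 over the 7 tested without both polysomal replicate 3 libraries, again with 3 higher and 2 lower (37.2% and 31.7% of all genes). After CNOT1 siRNA, TUBA4A (0.83 ± 0.17) and TUBD1 (0.43 ± 0.07) were higher in input and TUBA8 lower (-1.04 ± 0.26), with 7 tested. In that comparison 27.3% of all genes were higher and 33.4% lower.

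Of 14 genes for tubulin folding and dimer assembly, 9 were lower and 1 higher in input after CNOT1 siRNA (33.4% and 27.3% of all genes). The higher one was the prefoldin subunit PFDN2 (0.29 ± 0.08), and the lower ones included PFDN5 (-0.61 ± 0.07), the dimer-sequestering STMN1 (-0.45 ± 0.05) and the cofactor TBCD (-0.38 ± 0.08). In the eIF4A1, eIF4A2 and DDX6 IPs 4, 10 and 4 of the 14 were lower and none higher, where 25.2%, 25.5% and 21.8% of all genes were lower. In polysomal against subpolysomal RNA of control cells 11 were higher and 2 lower (34.6% and 33.7% of all genes), and 11 and 1 without both replicate 3 libraries.
Of 15 tubulin-modifying enzymes, 11 were lower and 3 higher in input after CNOT1 siRNA (33.4% and 27.3% of all genes). Against total RNA, 5 of them rose and 5 fell with eIF4A1, 3 rose and 2 fell with eIF4A2, and 6 rose and 3 fell with DDX6. The shares over all genes were 27.6%, 24.7% and 24.2% higher and 25.2%, 25.5% and 21.8% lower. TTL, the tubulin tyrosine ligase, was higher in all 3 IPs (1.64 ± 0.13, 1.99 ± 0.13 and 1.40 ± 0.13), and TTLL3, a tubulin glycylase, was lower in all 3 (-2.09 ± 0.23, -0.77 ± 0.22 and -2.42 ± 0.23).
Of 13 genes for autoregulation and Ccr4-Not, 7 were higher in input after CNOT1 siRNA and 4 lower, beside 27.3% and 33.4% of all genes. Among the higher ones were the deadenylase subunits CNOT6L (0.69 ± 0.06) and CNOT8 (0.33 ± 0.05). The 4 lower ones were CNOT1 itself (-4.11 ± 0.07), CNOT6 (-0.79 ± 0.06), CNOT7 (-0.58 ± 0.07) and TTC5 (-0.20 ± 0.07), and SCAPER did not pass (0.14 ± 0.07). None of the 4 lists had a member called in the interaction with labels as given. Without both polysomal replicate 3 libraries TUBG2 was higher (0.75 ± 0.21), and CNOT1 (-2.37 ± 0.22), AGBL5 (-1.26 ± 0.23), CCDC23 (-1.15 ± 0.22) and TTL (-1.04 ± 0.22) were lower. The shares over all genes were then 2.54% higher and 3.70% lower.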

How the data were processed

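RNA from HEK293 cells was sequenced in 40 libraries of 12 groups, defined by the labels. RNA was extracted with TRIzol per the labels (the study's methods name Trireagent followed by acid phenol), and the authors prepared stranded TruSeq libraries and, per the submitters' processing notes, used bcl2fastq 2.0, TopHat2, HTSeq and hg19; versions of the aligner and counter and the strand setting are not given in the sources used here. The deposited values are counts of reads per gene symbol, not normalized. A further deposited table holds the authors' own fold changes and p-values for the IPs and was not used.

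From the counts, library sizes were scaled by TMM, genes with low counts were removed with filterByExpr (minimum count 10) and edgeR 4.0.16 quasi-likelihood tests in R 4.3.3 (two-sided, Benjamini-Hochberg FDR threshold 0.05) were run over all genes in 6 fits: the 12 IP and total RNA libraries, the 8 libraries of each gradient fraction or input, the 16 fraction libraries, and the 4 TNRC6 libraries. Alternatives were DESeq2 1.42.0, RLE scaling, no filter, the replicate number as a block, each library left out, all 24 gradient libraries in 1 fit, and both polysomal replicate 3 libraries left out. The procedure was tested on simulated data. Depth was 15353317 to 46018900 counts per library, and errors are SE of the fit unless given as SD. Replicates are separate samples by label only, so p-values measure the spread between these samples, which may be technical.

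Replicate numbers come from the sample titles. Deviations from group means of same-numbered libraries correlated at r of 0.18 to 0.78 in the IP experiment (18 pairs), 0.192 to 0.354 in input and 0.586 to 0.732 in subpolysomal RNA (4 pairs each), so the numbers were taken to pair these samples. Loci, coding starts, UTRs and 75-base windows came from GENCODE 44 (lifted to GRCh37) and the GRCh37 genome. All 9 members were named; other genes were named from lists of further tubulins, autoregulation and Ccr4-Not, folding, and modifying enzymes, plus the knocked-down and precipitated genes, cell type markers, and the 5 genes of at least 10 CPM most correlated with the member mean. The members and lists were chosen with earlier results of these data known.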

Additional observations from a re-analysis of the deposited data

Results flagged for a closer look

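Among 54 groups of 4 libraries examined (9 mRNAs in 6 groups), 2 held a library far from the others, and chance gives about 1 in 20. TUBA1B was at 1680 CPM in control siRNA subpolysomal replicate 1, against 1971 to 2022 CPM in the other 3 libraries, a gap of 0.852 of the range. TUBB2B was at 27.33 CPM in CNOT1 siRNA subpolysomal replicate 3, against 15.82 to 17.27 CPM in the others, a gap of 0.874 of the range.

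The CNOT1 siRNA effect on TUBA1B differed between polysomal and subpolysomal RNA by a log2 interaction of 0.9041 (edgeR FDR 0.0336) with labels as given, and of 0.8719 (edgeR FDR 0.0231) without both polysomal libraries of replicate 3.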

How the results depend on the processing

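Alternative values of the 117 single-gene log2 values numbered 1494. Of these, 1411 kept their side of the threshold, 38 lost a call, 45 gained one and 0 called values reversed. Among the 1411 were 69 uncalled values that changed sign. With the replicate block, the DDX6 IP against total RNA had 1 member higher, the eIF4A2 IP against the DDX6 IP 5 lower, the DDX6 IP against the eIF4A1 IP 3 higher, and CNOT1 siRNA in subpolysomal RNA 4 higher and 2 lower; the block moved no other count of member calls by over 1.5 times. After TNRC6A and TNRC6B siRNA the block called 0 members but 768 genes higher and 196 lower, where the fit without it called none; the numbers there gave 2 pairs with r of 0.862 and were not taken as a pairing. DESeq2 called 2 members higher in the DDX6 against the eIF4A1 IP (360 of 17474 genes). Without the filter on low counts 1 was higher in the DDX6 IP against total RNA (4291 of 32590 genes). With all 24 gradient libraries in 1 fit, input after CNOT1 siRNA had 1 higher and 1 lower (2198 and 2817 of 16679 genes). In that fit polysomal against subpolysomal control RNA had 2 lower (5914 of 16679 genes). Without both polysomal libraries of replicate 3, input had 1 higher (in the 24-library fit, 3106 of 16848 genes). Polysomal RNA after CNOT1 siRNA then had 2 higher (2819 of 14514 genes), and polysomal against subpolysomal control RNA 0 lower (5201 of 16386 genes). With single libraries left out, counts ran from 1 to 3 (eIF4A2 against DDX6 IP, lower), 0 to 1 (polysomal against subpolysomal control, lower) and 0 to 1 (interaction, higher). The causes were not tested. In polysomal RNA the replicate numbers did not pair the samples (r -0.562 to 0.094, and 0 of 8 libraries correlated best with their own number). TUBB3 rested on as few as 12 counts in a library, which limits its precision.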
